A study of Mus musculus with 2 samples.

Results

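The proneural and neuronal transcription factors Neurog1, Neurog2, Atoh1, Neurod1, Neurod2, Neurod4, Neurod6, Eomes and Insm1 were examined in single-nucleus RNA-seq counts of fetal mouse brain. The members were chosen by gene symbol, and all 9 were found among the 55416 features of the deposited matrices. Those named Neurog, Neurod or Atoh encode basic helix-loop-helix (bHLH) proteins, whereas Eomes encodes a T-box factor and Insm1 a zinc-finger factor. The series holds 2 libraries of whole brain at an age labelled only as fetal, one labelled wildtype and the other labelled as a knockout of Cav1, the gene of the membrane protein caveolin 1. Strain, sex, day of gestation, the knockout allele and the number of fetuses behind a library are not given in the sources used here. Nuclei came from frozen tissue, and RNAs were counted by unique molecular identifiers (UMIs), tags that let PCR copies of one molecule count once. With 1 library per genotype no test between genotypes was possible. All intervals are exact 95% intervals and cover counting error only.

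In the developing forebrain, radial glia are the stem cells that line the ventricle, and Notch signalling through Hes repressors keeps them undifferentiated. Proneural bHLH factors pair with E proteins, bind the E-box CANNTG and start neuronal differentiation, whereas Id proteins take E proteins away from them. In the cortex, Neurog1 and Neurog2 act in radial glia and in their daughters, Eomes and Insm1 mark and promote intermediate progenitors, which divide again away from the ventricle, and Neurod1, Neurod2 and Neurod6 follow as cells become excitatory neurons. Neurod4 acts beside the neurogenins, and Atoh1 acts mainly in the rhombic lip of the hindbrain.

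The nuclei used had 500 or more genes detected and no more than 5% mitochondrial UMIs, 6686 with 17205381 UMIs in the wildtype-labelled library and 6680 with 19878903 UMIs in the knockout-labelled library. The median nucleus held 2133.5 and 2366 UMIs, and 10 barcodes were kept in both libraries. Cav1 had 71 and 80 UMIs in all, or 4.13 and 4.02 counts per 1000000 UMIs (CPM), levels that did not differ beyond counting error (log2 ratio −0.04, −0.52 to 0.45) and so did not follow the labels. In endothelial cell-like nuclei it had 17 UMIs against 1, a 23.8-fold lower level in the knockout-labelled library (3.73 to 996). Tags near the 3′ end cannot tell a full transcript from one lacking exons upstream, and the libraries are called by their labels throughout.

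The members were left out of the genes used for clustering and of the marker lists, so the classes of nuclei below do not rest on the members' own counts. The intermediate progenitor list holds genes counted below as downstream of proneural factors, such as Dll1, Dll3, Gadd45g, Btg2 and Sstr2. The cortical neuron list likewise holds Tbr1 and Unc5d, so the classes are not independent of such genes. The names given to clusters are rebuilt ones, not the authors' own. Of 24 clusters, 1 was radial glia-like (604 wildtype-labelled and 408 knockout-labelled nuclei), with 6 of 9 radial glia markers and all 11 dividing markers above the other clusters. Another was intermediate progenitor-like (180 and 124 nuclei), with 12 of 14 markers. Among 4 cortical excitatory neuron-like clusters, one with Unc5d, a netrin receptor of young upper-layer neurons, among its 10 leading genes also had 7 of the 14 intermediate progenitor markers (672 and 485 nuclei). It is called Unc5d-led. Because of these intermediate progenitor markers, not of Unc5d, it is given apart from the other 3 clusters (1075 and 763 nuclei). These 6 clusters had a higher sum of dorsal than of ventral forebrain markers, and are called the dorsal lineage. For the ventral side, 1 dividing forebrain inhibitory-like cluster (223 and 227 nuclei) and 2 forebrain inhibitory neuron-like clusters (917 and 737 nuclei) were used. Endothelial, mural and fibroblast-like nuclei (183 and 207), which should lack the members, gave the background level. Of these, 24.1% of endothelial, 16.2% of mural and 21.1% of fibroblast-like nuclei had top doublet scores, against 8% of all nuclei, and the parts of free RNA and of merged nuclei in this level were not told apart. Without such nuclei (146 and 162 left), a UMI was found in 7.53% and 4.94% of them for Neurog2, 2.74% and 2.47% for Eomes, 8.90% and 8.64% for Neurod2 and 19.2% and 14.2% for Neurod6.

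The promoters of 4 members are shown because these genes formed the pairs with the most similar levels across clusters, Neurog2 with Eomes and Neurod2 with Neurod6. Each sequence is the 250 bases before the annotated start of the gene in GRCm39 (GENCODE annotation), written 5′ to 3′ on the gene's strand, with E-boxes (CANNTG, which reads the same on both strands) in capitals. The windows are chr3:127426198-127426447 on the plus strand, chr9:118307030-118307279 on the plus strand, chr11:98220481-98220730 on the minus strand and chr6:55658327-55658576 on the minus strand.
Neurog2: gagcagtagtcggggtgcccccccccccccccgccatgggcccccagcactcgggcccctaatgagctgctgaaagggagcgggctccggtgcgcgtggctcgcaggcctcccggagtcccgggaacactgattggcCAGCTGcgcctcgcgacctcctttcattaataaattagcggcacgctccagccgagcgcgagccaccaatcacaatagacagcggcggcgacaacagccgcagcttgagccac
Eomes: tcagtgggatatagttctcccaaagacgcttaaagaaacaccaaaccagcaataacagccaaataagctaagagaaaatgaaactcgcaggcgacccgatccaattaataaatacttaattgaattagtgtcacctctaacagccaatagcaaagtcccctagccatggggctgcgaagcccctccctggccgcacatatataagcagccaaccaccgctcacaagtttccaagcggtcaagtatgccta
Neurod2: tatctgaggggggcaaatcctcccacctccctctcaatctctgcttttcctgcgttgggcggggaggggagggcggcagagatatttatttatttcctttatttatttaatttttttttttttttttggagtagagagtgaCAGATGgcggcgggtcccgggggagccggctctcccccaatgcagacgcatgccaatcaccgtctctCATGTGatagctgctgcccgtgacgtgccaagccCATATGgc
Neurod6: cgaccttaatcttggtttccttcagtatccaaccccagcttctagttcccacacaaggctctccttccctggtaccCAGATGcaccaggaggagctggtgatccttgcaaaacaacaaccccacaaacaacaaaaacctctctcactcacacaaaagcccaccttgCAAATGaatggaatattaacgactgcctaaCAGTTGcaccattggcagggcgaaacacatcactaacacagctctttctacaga
The Neurod2 and Neurod6 windows each held 3 E-boxes, a number reached by 11.7% of 21093 promoters of the same length. Both held CAGATG, at 109 bases before the start in Neurod2 and at 174 bases in Neurod6. The Neurog2 window held 1, CAGCTG, and the Eomes window held none, whereas 66.4% of the 21093 promoters held at least 1. CAGATG or CAGCTG, read on either strand and both also CANNTG boxes, stood in 24.0% of these promoters. The 21093 promoters were those of protein-coding genes, with 1 autosome and the Y chromosome left out. Of the other members, Neurod1 and Insm1 had 2 E-boxes each, Neurog1 had 1, and Atoh1 and Neurod4 had none. These are matches of letters in a window, not measured sites.

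Neurog2, the main neurogenin of the cortex, was highest in intermediate progenitor-like nuclei. It had 361 CPM (302 to 428) in the wildtype-labelled and 351 CPM (286 to 426) in the knockout-labelled library there. Radial glia-like nuclei had 89.1 and 94.0 CPM, Unc5d-led cortical neuron-like nuclei 60.6 and 79.2 CPM, and the other cortical neuron-like nuclei 23.3 and 20.4 CPM. The last level was not above that of the background nuclei, 21.9 CPM in both libraries. The step from radial glia-like to intermediate progenitor-like nuclei was thus 4.05-fold (3.15 to 5.21) and 3.73-fold (2.80 to 4.97). The order of the values was the same in both libraries, but the intervals of radial glia-like and Unc5d-led nuclei overlapped, so these were not separated. A Neurog2 UMI was found in 46.1% and 52.4% of intermediate progenitor-like nuclei (median depths 2026.5 and 2181 UMIs), against 7.65% and 7.25% of background nuclei (2520 and 2880 UMIs). After thinning to 1000 UMIs per nucleus, which left out 846 and 1111 shallower nuclei over all classes, these shares were 26.2% and 34.2% against 1.70% and 2.49%. Neurog2 lies on chromosome 3 at 127426448 to 127429280, on the plus strand.

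Eomes, on chromosome 9 at 118307280 to 118315200, was highest in the same class, but unlike Neurog2 it was higher in Unc5d-led than in radial glia-like nuclei. Its level was 570 CPM (496 to 653) and 480 CPM (404 to 567) in intermediate progenitor-like nuclei. It was 61.0 and 48.9 CPM in radial glia-like, 110 and 119 CPM in Unc5d-led, and 16.6 and 11.0 CPM in the other cortical neuron-like nuclei. The step from radial glia-like to intermediate progenitor-like nuclei was 9.34-fold (7.24 to 12.1) and 9.82-fold (7.08 to 13.8). An Eomes UMI was found in 61.7% and 58.1% of intermediate progenitor-like nuclei, against 3.28% and 3.86% of background nuclei. Outside the dorsal lineage, Cajal-Retzius cell-like nuclei, early-born neurons of the cortical surface, had 131 CPM (17 UMIs in 39 nuclei) in the wildtype-labelled and 49.4 CPM (7 UMIs in 35 nuclei) in the knockout-labelled library.

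Insm1, on chromosome 2 at 146063841 to 146066940, had similar levels in a progenitor class of each lineage. Intermediate progenitor-like nuclei had 81.5 and 68.1 CPM, and dividing forebrain inhibitory-like nuclei had 78.4 CPM (54.0 to 110) and 67.0 CPM (45.8 to 94.6). Radial glia-like nuclei had 40.7 and 32.6 CPM, Unc5d-led nuclei 55.5 and 42.9 CPM, and the other cortical neuron-like nuclei 21.3 and 18.4 CPM. The unnamed cluster 0, outside these classes, held 13.2% and 12.4% of the Insm1 UMIs, beside 3.38% and 3.78% of all UMIs. For intermediate progenitor-like nuclei these shares were 5.84% and 4.36%, beside 2.14% and 1.48%, so Insm1 was not particular to the progenitor classes. In the inhibitory lineage the level in dividing nuclei was 3.35-fold (2.04 to 5.46) and 2.32-fold (1.42 to 3.76) that in forebrain inhibitory neuron-like nuclei, where it was 23.4 and 28.9 CPM. Eomes, in contrast, had 30.9 and 16.8 CPM in the dividing inhibitory-like nuclei, with intervals that overlapped those of the inhibitory neuron-like nuclei (25.8 and 17.5 CPM).

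Neurod2, on chromosome 11 at 98216241 to 98220480 on the minus strand, was highest in the cortical neuron-like clusters. Unc5d-led nuclei had 368 CPM (336 to 401) and 324 CPM (291 to 360), and the other cortical neuron-like nuclei 257 and 253 CPM. Intermediate progenitor-like nuclei had 78.8 and 98.8 CPM and radial glia-like nuclei 60.3 and 54.7 CPM, where the interval overlapped that of the background nuclei (46.6 and 48.5 CPM). The step from intermediate progenitor-like to Unc5d-led nuclei was 4.67-fold (3.21 to 7.04) and 3.28-fold (2.25 to 4.98). A Neurod2 UMI was found in 336 of 672 and 235 of 485 Unc5d-led nuclei (48.5% in the latter), against 12.0% and 15.5% of background nuclei.

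Neurod6, on chromosome 6 at 55654807 to 55658326 on the minus strand, reached its highest level among the dorsal classes in the same nuclei, 390 CPM (358 to 424) and 423 CPM (385 to 464). The unnamed cluster 0, outside these classes, had 497 and 324 CPM. Intermediate progenitor-like nuclei had 215 and 181 CPM, 2.09-fold (1.57 to 2.77) and 2.41-fold (1.67 to 3.47) the level in radial glia-like nuclei. From there to Unc5d-led nuclei the step was 1.82-fold (1.43 to 2.33) and 2.34-fold (1.76 to 3.18). This step was smaller than that of Neurod2 beyond the intervals in the wildtype-labelled library, while the intervals overlapped in the knockout-labelled library. The other cortical neuron-like nuclei had 280 and 302 CPM. Background nuclei had 91.8 CPM (70.5 to 117) and 48.5 CPM (34.9 to 65.5), and radial glia-like nuclei had 102 and 74.8 CPM, 1.12-fold (0.83 to 1.52) and 1.54-fold (1.05 to 2.30) that level.

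Neurod1, on chromosome 2 at 79282865 to 79287294, was sparse, with 113 and 137 UMIs in all. Among the dorsal classes it was highest in Unc5d-led nuclei, which held 30.1% and 25.5% of its UMIs. Unc5d-led nuclei had 24.5 CPM (17.0 to 34.3) and 32.6 CPM (22.7 to 45.4), 3.69-fold (2.06 to 6.76) and 4.70-fold (2.57 to 8.95) the level in the other cortical neuron-like nuclei. The unnamed cluster 0, outside these classes, held 13.3% and 8.76% of the Neurod1 UMIs, beside 3.38% and 3.78% of all UMIs. Neurod1 was thus not particular to Unc5d-led nuclei. In intermediate progenitor-like nuclei only 3 and 1 UMIs were counted. Its gene overlaps Cerkl on the same strand (54 and 64 UMIs), so that reads of this stretch are uncertain in their assignment. Neurod4, on chromosome 10 at 130104021 to 130116132, had 8 of its 32 and 7 of its 28 UMIs in intermediate progenitor-like nuclei, 21.7 and 23.8 CPM. Neurog1, on chromosome 13 at 56398291 to 56399976, had 21 UMIs in each library, of which 4 and 3 were in intermediate progenitor-like nuclei, 10.9 and 10.2 CPM.

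Atoh1, on chromosome 6 at 64706109 to 64708229, had 1 UMI in the wildtype-labelled and 12 UMIs in the knockout-labelled library. The log2 ratio was 3.38 with a counting interval of 0.62 to 8.79. Of the 12 UMIs, each in a nucleus of its own, 5 lay in neuron-like and 3 in other inhibitory neuron-like nuclei. The others lay in dividing forebrain inhibitory-like, Unc5d-led and unnamed nuclei. In the clustering used here no cluster was named for the rhombic lip, where the gene is known to act. At resolution 2, 1 cluster of 96 and 123 nuclei had 4 of the 8 markers of rhombic lip or granule cells. The Atoh1 UMIs in that cluster were not counted.

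**Figure D1:**
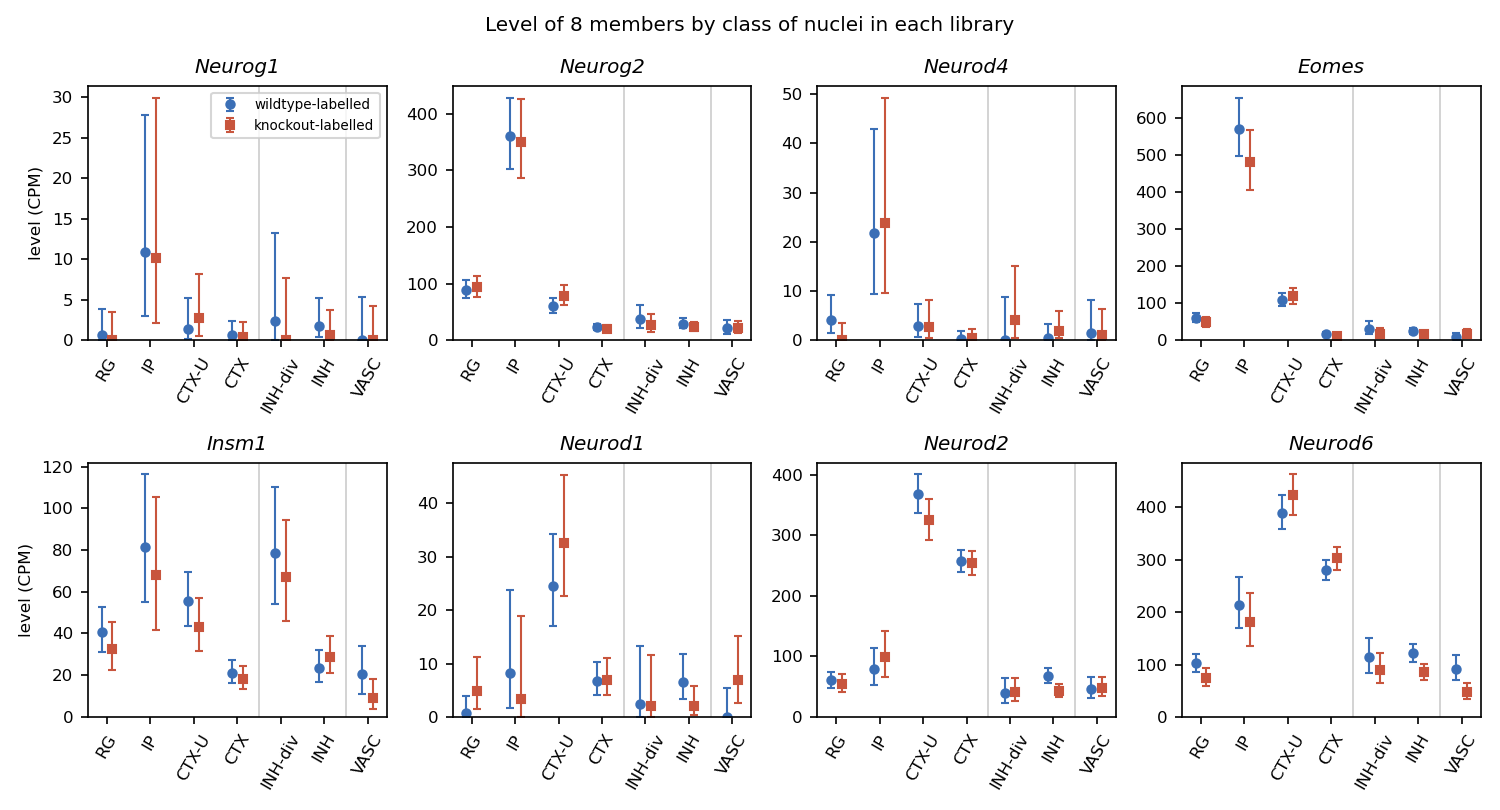
Level of 8 members (CPM, points, with 95% Poisson intervals) by class of nuclei in the wildtype-labelled (blue) and knockout-labelled (red) library. RG, radial glia-like; IP, intermediate progenitor-like; CTX-U, Unc5d-led cortical neuron-like; CTX, other cortical neuron-like; INH-div, dividing forebrain inhibitory-like; INH, forebrain inhibitory neuron-like; VASC, endothelial, mural and fibroblast-like. Neurog2 and Eomes peak in IP, Neurod1, Neurod2 and Neurod6 in CTX-U, and Insm1 is high in both IP and INH-div.

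The members thus fell in 2 groups by the dorsal class in which they were highest, the same in both libraries. Neurog1, Neurog2, Neurod4, Eomes and Insm1 were highest in intermediate progenitor-like nuclei, and Neurod1, Neurod2 and Neurod6 in Unc5d-led nuclei. The intervals of the highest and the second class did not overlap for Neurog2, Neurod2, Neurod4, Neurod6 and Eomes in either library. They overlapped for Neurog1 and Insm1 in both libraries and for Neurod1 in the wildtype-labelled library, where the next class rested on 3 UMIs.

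Within the radial glia-like and intermediate progenitor-like classes, Neurog2 and Eomes were lower in nuclei with 3 or more UMIs of the 11 dividing markers (Top2a, Mki67 and others) than in nuclei with none. In radial glia-like nuclei without such a UMI, Neurog2 had 141 and 170 CPM, against 40.8 and 50.9 CPM in nuclei with 3 or more, a difference of 3.45-fold (2.19 to 5.54) and 3.33-fold (2.06 to 5.50). Eomes had 84.4 and 78.1 CPM against 29.9 and 29.1 CPM. In intermediate progenitor-like nuclei, Neurog2 had 458 and 492 CPM without and 199 and 137 CPM with 3 or more dividing-marker UMIs, and Eomes 626 and 566 CPM against 298 and 264 CPM. Nuclei with 1 to 2 such UMIs did not lie between these groups throughout. For Eomes they had 110 and 60.5 CPM in radial glia-like and 680 and 633 CPM in intermediate progenitor-like nuclei, with intervals that overlapped those of nuclei with none. For Neurog2 they had 141 and 101 CPM and then 322 and 336 CPM. Nuclei with 3 or more such UMIs were deeper, with medians of 2582 and 2778.5 UMIs against 1808 and 1916 in radial glia-like nuclei, and CPM is relative to that depth.

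Insm1 did not share this pattern in all classes. It was higher without dividing-marker UMIs in radial glia-like nuclei, 2.13-fold (1.15 to 3.99) and 2.55-fold (1.09 to 6.13). In intermediate progenitor-like nuclei it had 44.7 and 40.4 CPM without and 99.5 and 127 CPM with 3 or more, from 6 to 12 UMIs a group and with overlapping intervals. In dividing forebrain inhibitory-like nuclei it had 87.9 and 28.1 CPM without and 97.6 and 106 CPM with 3 or more. The level without was 0.90-fold (0.35 to 2.07) and 0.27-fold (0.05 to 0.86) that with 3 or more, so that only the knockout-labelled interval lay off 1, from 3 UMIs. Neurod6 differed little by this split, with 86.7 and 78.1 CPM against 109 and 74.6 CPM in radial glia-like nuclei.

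**Figure D2:**
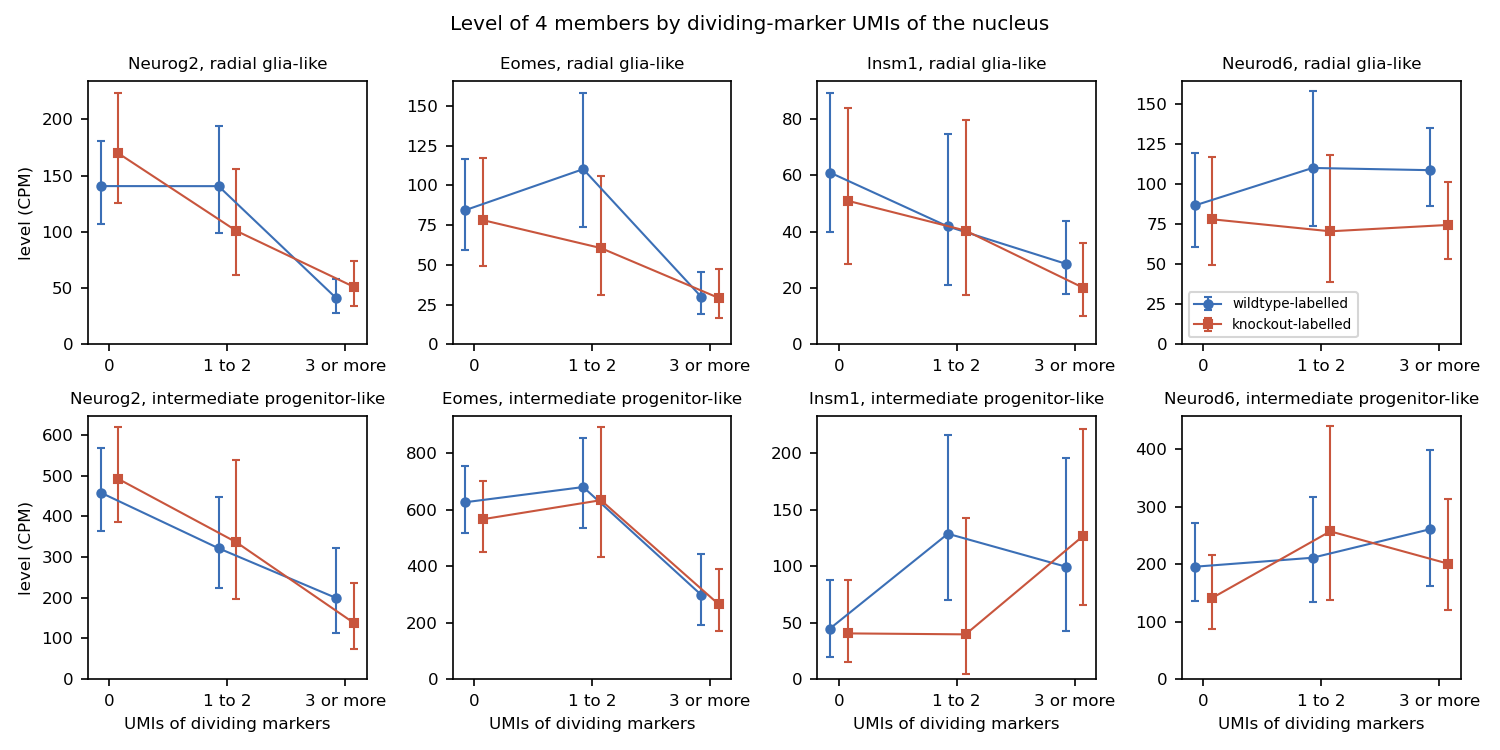
Level of 4 members (CPM, with 95% Poisson intervals) in radial glia-like (top) and intermediate progenitor-like (bottom) nuclei, grouped by the UMIs of 11 dividing markers in the nucleus. In both libraries Neurog2 and Eomes are lowest in the nuclei with 3 or more, and Neurod6 shows no such fall.

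Neurog2 and Eomes were found in the same radial glia-like nuclei more often than their shares in the class. Of the radial glia-like nuclei with a Neurog2 UMI, 25.3% (20 of 79, 16.2% to 36.4%) and 27.4% (17 of 62, 16.9% to 40.2%) also had an Eomes UMI, against 11.4% and 8.82% of all radial glia-like nuclei. Taken as a share of the nuclei with Eomes, these were 29.0% and 47.2%. Insm1 was found in 15.2% and 22.6% of the nuclei with Neurog2, against 9.11% and 7.35% of the class. The class had median depths of 2133.5 and 2289.5 UMIs. Nuclei with a Neurog2 UMI were not matched to it in depth, so the part of depth in these shares was not tested. In intermediate progenitor-like nuclei, where Eomes was found in most nuclei, the share was 69.9% and 58.5% of those with Neurog2, against 61.7% and 58.1% of the class.

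In Unc5d-led nuclei, 56.8% (191 of 336) and 63.4% (149 of 235) of nuclei with Neurod2 also had Neurod6, against 51.9% and 55.5% of the class. Eomes was still found in 15.3% and 19.0% of these nuclei, and 38.8% and 41.3% of those also had Neurod2. Both values were below the share of Neurod2 in the class, but in the knockout-labelled library the difference was within counting error. The nuclei with Neurog2 held Eomes in 27.1% and 43.9%. Nuclei merged under 1 barcode would also give such pairs, so the shares were also taken without the 8% of nuclei with the highest doublet scores. The automatic threshold of these scores marked no nucleus, so this removal cannot tell pairs in single nuclei from pairs in merged ones. Among Neurog2 nuclei, Eomes was then found in 25.0% and 29.1% of radial glia-like and in 24.2% and 42.2% of Unc5d-led nuclei. In Unc5d-led nuclei, Neurod6 was then found in 56.5% and 63.4% of those with Neurod2, and Neurod2 in 37.8% and 40.2% of those with Eomes.

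**Figure D3:**
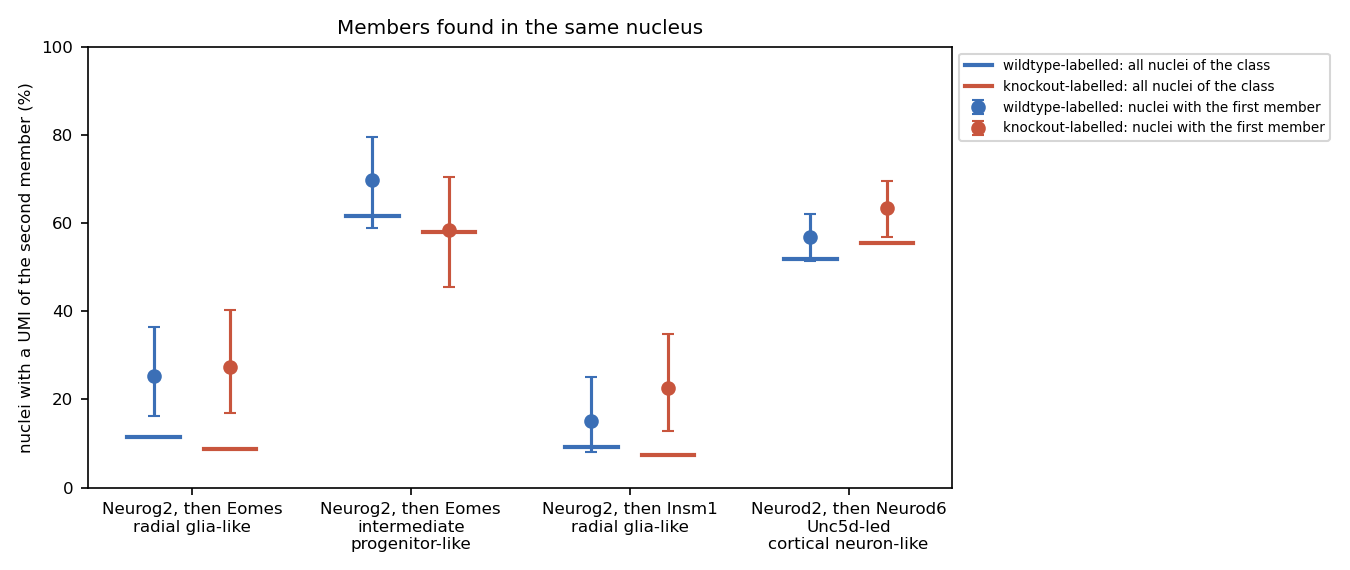
Share of nuclei with a UMI of the second member (%), among nuclei with a UMI of the first member (points, with 95% binomial intervals) and among all nuclei of the class (bars), in each library. Among the 4 pairs plotted, the points lie farthest above the bars for Neurog2 and Eomes in radial glia-like nuclei.

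Across the 24 clusters, with both libraries together, Pearson's r of log2(CPM + 1) was 0.88 for Neurog2 with Eomes and 0.94 for Neurod2 with Neurod6, and 0.26 for Neurog2 with Neurod2. Neurod4, with 32 and 28 UMIs, had 0.77 with Neurog2. The clusters share libraries and free RNA, and their depths differ, so that r is a description over 24 points. Among 13256 other genes with at least 200 UMIs, those most like Neurod2 were Zbtb18, a zinc-finger repressor of cortical neurons (0.90), Slc17a7, the vesicular glutamate transporter (0.89), and 9130024F11Rik (0.88). Those most like Neurod6 included Zbtb18 (0.94) and the bHLH inhibitor Id2 (0.87). Zbtb18 and Slc17a7 were among the markers that named the clusters. Neurog2 was followed by Acly, ATP-citrate lyase (0.85), Cul1, a ubiquitin ligase subunit (0.82), and Hes6, a Hes family member that opposes Hes1 (0.80). Eomes was followed by Cul1 (0.86), Ubxn2a (0.83) and Acly (0.80), and Insm1 by genes that included Hnrnpu (0.89) and the replication factor subunit Rfc4 (0.88). For the sparse members the values were lower, at most 0.73 for Neurog1 (Ago1), 0.73 for Neurod1 (Ebna1bp2) and 0.61 for Atoh1 (Tmem158), while Neurod4 reached 0.85 (Ssbp1).

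**Figure D4:**
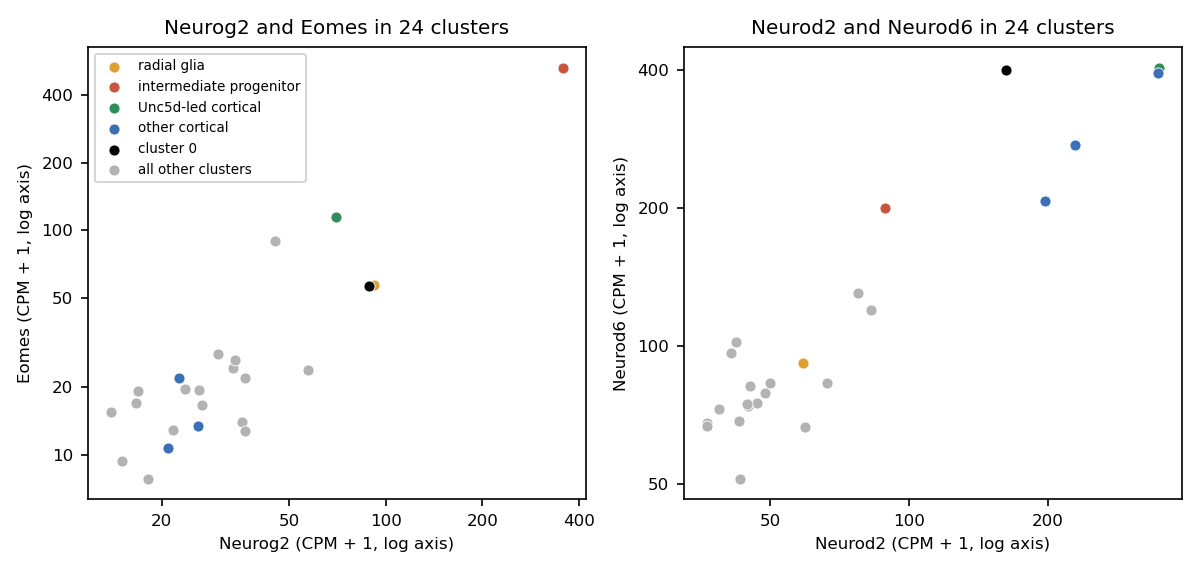
Levels of Neurog2 and Eomes (left) and of Neurod2 and Neurod6 (right) in 24 clusters over both libraries together (CPM + 1, log axes), with each point 1 cluster. The intermediate progenitor-like cluster is highest in both Neurog2 and Eomes, and the cortical neuron-like clusters and the unnamed cluster 0 are highest in Neurod6.

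Over all kept nuclei, 5 of the 6 members with at least 100 UMIs had a lower level in the knockout-labelled library. Neurog2 had 792 and 687 UMIs, 46.0 and 34.6 CPM, a log2 ratio (knockout-labelled over wildtype-labelled) of −0.41 (−0.56 to −0.26). Neurod2 had 2044 and 1776 UMIs, 119 and 89.3 CPM, a ratio of −0.41 (−0.50 to −0.32). Neurod6 had 2856 and 2543 UMIs, 166 and 128 CPM, a ratio of −0.38 (−0.45 to −0.30). The ratio was −0.48 (−0.63 to −0.32) for Eomes, with 43.9 and 31.6 CPM, and −0.37 (−0.56 to −0.19) for Insm1, with 29.9 and 23.1 CPM. Neurod1 had 6.57 and 6.89 CPM, a ratio of 0.07 (−0.30 to 0.44). None of the 6 reached 1.5-fold, which 2.72% of 15528 genes with at least 100 UMIs did, 0.605% of them lower and 2.12% higher in the knockout-labelled library. At 1.25-fold, a level chosen after the values were seen, these 5 were lower, as were 4.6% of all genes. The median of all genes was −0.01 and their 5th percentile −0.31, above the values of these 5 members.

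The dorsal lineage made up 37.9% (36.7% to 39.0%) of wildtype-labelled and 26.6% (25.6% to 27.7%) of knockout-labelled nuclei, and held 36.0% and 24.4% of all UMIs. It held 52.3% and 48.9% of the Neurog2 UMIs, 68.3% and 59.4% of those of Neurod2, and 66.0% and 55.3% of those of Eomes. Within it, the levels of Neurog2 (66.9 and 69.1 CPM), Neurod2 (226 and 217 CPM), Neurod6 (260 and 273 CPM) and Eomes (80.6 and 71.4 CPM) gave log2 ratios of 0.05 (−0.16 to 0.26), −0.06 (−0.17 to 0.06), 0.07 (−0.03 to 0.18) and −0.18 (−0.38 to 0.03). Insm1 was at 37.0 and 29.8 CPM, −0.31 with an interval (−0.62 to −0.00) that ended near 0. None of the 6 members tested there reached 1.5-fold, against 1.6% of 11129 genes.

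In all nuclei outside the dorsal lineage the same genes were lower in the knockout-labelled library, with log2 ratios of −0.55 (−0.77 to −0.34) for Neurog2, −0.48 (−0.60 to −0.37) for Neurod6, −0.32 (−0.57 to −0.07) for Eomes, −0.31 (−0.54 to −0.07) for Insm1 and −0.29 (−0.45 to −0.14) for Neurod2. None of 6 reached 1.5-fold, against 2.31% of genes. Their levels there were 34.3 and 23.4 CPM for Neurog2, 58.7 and 48.0 CPM for Neurod2 and 113 and 81.0 CPM for Neurod6, beside 21.9 and 21.9, 46.6 and 48.5, and 91.8 and 48.5 CPM in the background nuclei. Neurod6 was lower in the background nuclei too, at −0.92 (−1.52 to −0.34), from 63 and 42 UMIs, while Neurod2 (0.06, −0.64 to 0.77) and Neurog2 (0.00, −1.05 to 1.09) were not. The part of free RNA or merged nuclei in these differences was not tested.

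When the wildtype-labelled level of each cluster was kept and only the clusters' shares of UMIs were set to those of the knockout-labelled library, a calculation added after the data were seen, the log2 ratio was −0.17 for Neurog2, −0.29 for Neurod2, −0.19 for Neurod6, −0.27 for Eomes and −0.13 for Insm1. With both libraries at the cluster sizes of the knockout-labelled one, −0.24, −0.12, −0.18, −0.20 and −0.24 were left. At the sizes of the wildtype-labelled one, −0.14, −0.14, −0.14, −0.22 and −0.23 were left, so that the value for Neurog2 depended on which sizes were used. Whether the sizes of the clusters differed between the brains, the dissections or the captures cannot be told apart with 1 library per genotype.

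**Figure D5:**
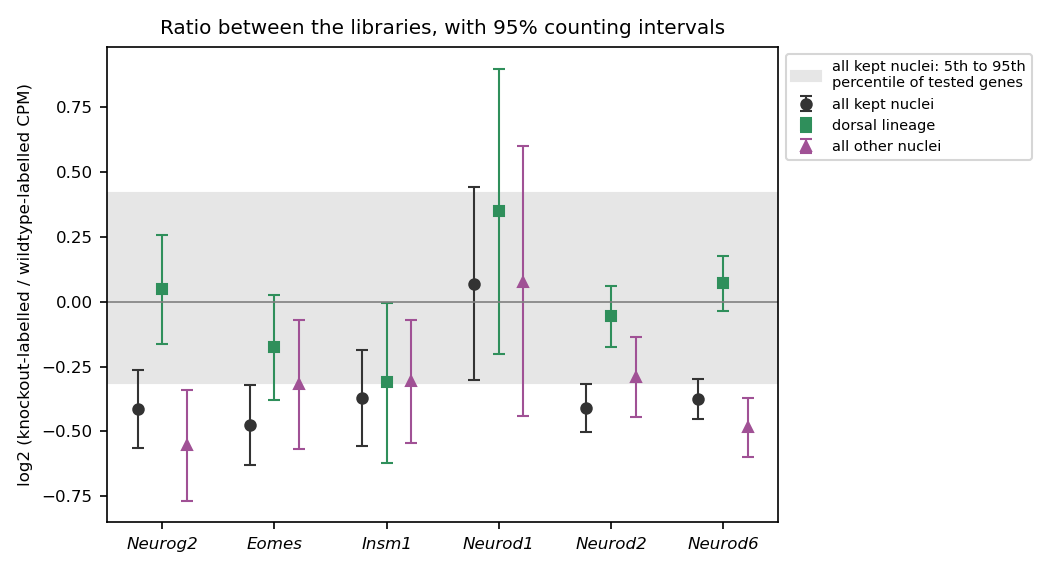
Log2 ratio of knockout-labelled over wildtype-labelled CPM for the 6 members with at least 100 UMIs, over all kept nuclei (circles), within the dorsal lineage (squares) and over all other nuclei (triangles), with 95% counting intervals. The grey band spans the 5th to 95th percentile of all genes with at least 100 UMIs over all kept nuclei, and 5 circles lie below it while the squares of Neurog2, Neurod2 and Neurod6 lie near 0.

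By class, no member with at least 100 UMIs reached 1.5-fold in radial glia-like (4 members, against 2.64% of genes), intermediate progenitor-like (3, 4.76%), Unc5d-led (5, 2.12%) or the other cortical neuron-like nuclei (4, 2.11%). In radial glia-like nuclei the ratio was 0.08 (−0.32 to 0.47) for Neurog2 and −0.32 (−0.85 to 0.20) for Eomes. In intermediate progenitor-like nuclei it was −0.04 (−0.43 to 0.34) for Neurog2 and −0.25 (−0.57 to 0.07) for Eomes. In Unc5d-led nuclei it was −0.18 (−0.38 to 0.02) for Neurod2 and 0.12 (−0.07 to 0.30) for Neurod6. The interval lay off 0 for Neurod6 in radial glia-like nuclei, −0.45 (−0.87 to −0.05), with the levels beside background given above. In forebrain inhibitory neuron-like nuclei, 1 of 2 members reached 1.5-fold, against 2.21% of genes (0.863% lower). This was Neurod2, with 67.9 and 43.0 CPM, −0.66 (−1.13 to −0.20), beside 46.6 and 48.5 CPM in the background nuclei. In Cajal-Retzius cell-like nuclei (39 and 35), Eomes had a ratio of −1.41 (−2.92 to −0.06) from 17 and 7 UMIs. This is under the 100 UMIs used for the folds above, and no share of genes was computed for this class. Whether it exceeds the usual scatter between the libraries was therefore not tested.

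The genes of the wider pathway were set beside the members over all kept nuclei, and no gene with at least 100 UMIs in the 4 lists reached 1.5-fold. The 7 E proteins and Id inhibitors had a median log2 ratio of −0.06, with 4 below and 3 above 0. The E protein Tcf4 was at −0.29 (−0.32 to −0.27) and the inhibitor Id1 at 0.46 (0.21 to 0.70). The Hes and Hey repressors, of which 5 of 6 had at least 100 UMIs, had a median of −0.18, with Hes5 alone above 0 at 0.20 (0.07 to 0.33). Of 15 other neural bHLH genes 7 were tested, with a median of 0.02. Bhlhe22, of cortical neurons, was at −0.28 (−0.45 to −0.10). Of the 20 genes downstream of proneural factors all were tested, 14 were below 0 and the median was −0.07. Tbr1, the T-box factor that follows Eomes in cortical neurons, was at −0.31 (−0.47 to −0.15), and the Notch ligand Dll1 at −0.23 (−0.44 to −0.02), whereas Dll3, an inhibitory Delta family member, was at 0.40 (0.11 to 0.70). The median over all genes was −0.01, so most genes were below 0 too, and the counts per list are not read as a shift of the pathway. The genes named here did not reach the fold that was to name them, and were chosen after their values were seen.

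From radial glia-like to intermediate progenitor-like nuclei, the Notch targets Hes1 and Hes5 fell, whereas Dll1 and Hes6 rose, as Neurog2 did above. Hes5 had 172 and 176 CPM in radial glia-like and 29.9 and 30.7 CPM in intermediate progenitor-like nuclei, and Hes1 had 58.2 and 56.6 against 13.6 and 13.6 CPM. Dll1, the ligand that proneural factors activate, had 23.2 and 24.0 CPM in radial glia-like and 95.1 and 98.8 CPM in intermediate progenitor-like nuclei. Hes6 had 58.9 and 56.6 CPM and then 128 and 140 CPM. Hes1, Hes5, Hes6 and Dll1 were among the markers that named these clusters, so their levels there are descriptions.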

How the data were processed

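Counts were analysed for 2 libraries of single nuclei, 1 per genotype. Values are raw UMI counts as deposited. Per the file headers they come from Cell Ranger 6.1.1, whereas the submitters' processing notes name Cell Ranger 3.0.1, STAR and GRCm39. Whether introns were counted is not given in the sources used here. No column of values was left unused. In all, 2969 of 9763 and 3904 of 10811 barcodes had under 500 genes, and 108 and 227 more exceeded 5% mitochondrial UMIs. The libraries shared 43 barcodes.

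Scrublet (scanpy 1.11.5) marked no nucleus at its automatic threshold and so had not worked, and no nucleus was removed as a doublet. Removal of the top 8% of scores was an alternative. Counts were scaled to 10000 per nucleus and log-transformed. With 3236 variable genes, 30 principal components, 15 neighbours and Leiden clustering at resolution 1, 24 clusters were found, with no correction between libraries. A name required at least 3 listed markers at 2-fold over the other clusters, and at 1.5-fold within each library. These thresholds were set after clusters were seen. Unnamed were cluster 0 (629 and 972 nuclei, low UMI counts, markers of 7 classes), cluster 1 (244 and 331, markers of 5 classes) and cluster 9 (91 and 109, of which 71% had top doublet scores).

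UMIs were summed per library and class and given as CPM with exact Poisson intervals. Shares have Clopper-Pearson intervals and ratios exact conditional binomial intervals. Ratios within a class were given from 20 UMIs over both libraries, and 3 UMIs were taken as the floor. The computation of ratios was tested on simulated data. Genes were named by rule: all members, the 3 most similar genes per member, and listed genes 1.5-fold apart. A few genes that the rule or the lists hold are not reported here. Members and lists were chosen with earlier results of these data known. Alternatives were other gene minimums, doublet removal, scaling, cluster resolutions, a mitochondrial limit, and clustering with the members.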

Additional observations from a re-analysis of the deposited data

Results flagged for a closer look

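The members were also counted in the barcodes that the minimum of 500 genes left out, 2969 wildtype-labelled and 3904 knockout-labelled, which entered no comparison, and levels above the floor of 3 UMIs were found there. Neurod6 had 444 and 347 CPM, Neurod2 186 and 168 CPM, and Neurog2 108 and 75.8 CPM in the wildtype-labelled and knockout-labelled library. Eomes had 81.9 and 46.7 CPM, Insm1 74.6 and 59.5 CPM, and Neurod1 19.9 and 28.6 CPM. The sparse members had 4.82 and 3.97 CPM (Neurog1) and 5.42 and 1.76 CPM (Neurod4), and Atoh1 had 2.20 CPM in the knockout-labelled library and 0 UMIs in the other. In both libraries the levels of Neurog2, Neurod1, Neurod2, Neurod6, Eomes and Insm1 were above those over all kept nuclei (for Neurod6, 166 and 128 CPM). The source of these UMIs was not tested.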

How the results depend on the processing

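No paired analysis was possible because each genotype has 1 library, and no replicate could be left out. Of the alternative values of the ratios over all kept nuclei, 67 stayed within the interval of the value reported and 5 did not. With clusters at the knockout-labelled shares of UMIs, Neurog2 moved to −0.24, Neurod2 to −0.12, Neurod6 to −0.18 and Eomes to −0.20, and with at most 1% mitochondrial UMIs Eomes moved to −0.32. None reversed. All 131 alternative ratios within the dorsal classes stayed within their intervals. With a minimum of 200 genes the classes hold the same nuclei, so no value was computed. Each member but Atoh1, too sparse to be compared, kept its highest class at resolution 2 and without top doublet scores. At resolution 0.5, and with the members among the clustering genes, not all 4 dorsal classes were named, so this was not run. The share of genes past 1.5-fold (2.72%) depends on the threshold: with at least 20 UMIs it was 9.26% (3.39% lower, 5.87% higher), at 2-fold 0.483% (0.116% and 0.367%) and at 1.25-fold 12.6% (4.6% and 8.02%). Shares of nuclei with a UMI moved past their interval in 20 of 36 wildtype-labelled and 18 of 36 knockout-labelled values. Depth limits Neurog1, Neurod4 and Atoh1, with 21 and 21, 32 and 28, and 1 and 12 UMIs.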

Other observations

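When the members were kept among the clustering genes, a cluster of 4 wildtype-labelled and 85 knockout-labelled nuclei formed (0.0598% and 1.27% of nuclei), led by 2610027F03Rik, Robo3, 1700120O09Rik, Ebf2 and Pax3. Its nuclei came from an other excitatory neuron-like cluster (51) and a neuron-like cluster (38) of the clustering reported above. The 85 nuclei held 3 of the 12 Atoh1 UMIs of their library, 7 Neurod1 UMIs (33.7 CPM) and 18 Neurog2 UMIs (86.5 CPM), and 57 of 312 Robo3 UMIs in 9 nuclei. Of all nuclei of this cluster, from both libraries, 4.49% had a top doublet score.

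The unnamed cluster 0, with the lowest UMI counts (medians of 740 and 706), had 497 CPM (442 to 558) of Neurod6 in the wildtype-labelled and 324 CPM (285 to 368) in the knockout-labelled library, and 1 of its wildtype-labelled nuclei held 17 Neurod6 UMIs. In the other inhibitory neuron-like nuclei of the knockout-labelled library, 1 nucleus held 18.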
